A study of Mus musculus with 20 samples.

Results

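The genes described here are the 7 that encode the 4 AMPA receptor subunits (Gria1, Gria2, Gria3 and Gria4) and the kainate receptor subunits Grik1, Grik2 and Grik3. They were taken by symbol from a table of raw read counts of 19269 genes in 20 mouse RNA-seq libraries, and all 7 were present and passed the filter on low counts in every comparison. The tissue was the preoptic area of the hypothalamus of female mice, at day 21 (young) or at days 70 to 150 in diestrus (adult), with punches of 3 to 4 mice combined into 1 pool. Translating ribosome affinity purification was used, which pulls down GFP-tagged ribosomes with the mRNA they carry and leaves a depleted supernatant of all other RNA. Offspring of GnRH CRE and floxed-stop L10a-GFP mice carry the tag in neurons that express gonadotropin-releasing hormone (GnRH).

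The new pools were 5 negative controls without the tag and 1 tagged adult pool, GnRH CRE x Floxed L10a-GFP, and each gave an immunoprecipitate (IP) and a supernatant. Young negative pools 1 and 2 came from wild-type mice, and young negative pool 3 from mice with Floxed L10a-GFP but no CRE. Adult negative pools 1 and 2 came from mice with GnRH CRE but no L10a-GFP. Age and genotype therefore cannot be told apart among the negative pools. The other 8 libraries were supernatants of 4 tagged pools of an earlier experiment, 2 young and 2 adult (here the prior pools), all with the tagged genotype, each sequenced in a first and a second set. Whether the mice of the prior pools had any prenatal treatment is not given in the labels used here. Libraries held 27.7 to 50.5 M counts, and Gnrh1, the marker of the tagged cells, stood at 1456 CPM (counts per 1 M counts of the library, scaled by TMM) in the tagged IP against 27.3 CPM in its own supernatant. Young negative pool 3 stood apart in cortical markers. Slc17a7, the vesicular glutamate transporter of cortical neurons, was at 119.8 CPM in its supernatant and 140.9 CPM in its IP, against at most 7.28 CPM in the other negative libraries, and Neurod6 at 13.7 and 15.2 CPM against at most 0.492 CPM. In the second set Slc17a7 was also at 52.3 CPM in young prior pool 1 and 33.9 CPM in adult prior pool 3, against 2.13 and 3.27 CPM in the other prior pools, and at 21.3 CPM in the tagged supernatant.

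AMPA and kainate receptors are glutamate-gated cation channels built from 4 subunits. AMPA receptors carry most fast excitatory transmission, and the makeup of the tetramer sets its conductance and its permeability to calcium. Kainate receptors act on both sides of the synapse. GluK1 to GluK3 (from Grik1 to Grik3) can form channels by themselves, whereas the products of Grik4 and Grik5 need one of them as a partner. In GnRH neurons and their inputs, glutamate acting through AMPA and kainate receptors is among the excitatory signals that drive hormone release.

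The pore loop with its Q/R site is shown for all 7 members, because this site sets calcium permeability and because the stretch shows how the AMPA and kainate families diverge. The genome encodes glutamine at this site. In GluA2, the product of Gria2, the codon is edited in RNA to arginine in nearly all transcripts of the adult brain, which makes receptors that hold GluA2 nearly impermeable to calcium. Grik1 and Grik2 transcripts are edited in part. The lines give 57 coding bases of the longest coding transcript of each gene from the mouse build GRCm38 (GENCODE M21), 5′ to 3′ on the coding strand, with the Q/R codon in capitals.
Gria1: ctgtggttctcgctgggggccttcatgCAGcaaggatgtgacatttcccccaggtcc
Gria2: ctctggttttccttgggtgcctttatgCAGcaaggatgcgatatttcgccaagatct
Gria3: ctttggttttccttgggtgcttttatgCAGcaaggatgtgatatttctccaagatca
Gria4: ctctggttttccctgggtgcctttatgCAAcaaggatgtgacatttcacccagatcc
Grik1: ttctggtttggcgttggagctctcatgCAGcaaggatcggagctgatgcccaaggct
Grik2: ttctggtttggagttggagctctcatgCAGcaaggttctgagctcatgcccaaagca
Grik3: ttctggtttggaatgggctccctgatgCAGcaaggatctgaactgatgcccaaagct
The Q/R codon is codon 607 of Gria2, 600 of Gria1, 612 of Gria3, 608 of Gria4, 636 of Grik1, 621 of Grik2 and 623 of Grik3, counted from the start codon. It reads CAG in 6 members and CAA in Gria4, both glutamine. Pairs of AMPA subunits shared 45 to 52 of the 57 bases, pairs of kainate subunits 47 to 51, and pairs across the families 34 to 38. In all 7 genes the stretch spans an intron. The exon boundary falls after base 53 in the 4 AMPA genes and after base 34 in the 3 kainate genes. The Gria2 stretch lies on the minus strand within chr3:80702653-80706940, across exons 11 and 12. Those of Gria1 (chr11:57243067-57283513, plus strand) and Gria3 (chrX:41610238-41620800, plus strand) span exons 11 and 12 too, and that of Gria4 (chr9:4462101-4464166, minus strand) spans exons 12 and 13. Among the kainate genes the stretch of Grik1 lies within chr16:87936093-87940571 on the minus strand (exons 13 and 14), that of Grik2 within chr10:49240774-49244358 on the minus strand (exons 12 and 13) and that of Grik3 within chr4:125691180-125693984 on the plus strand (exons 12 and 13). Counts per gene do not separate edited from unedited transcripts, so the values that follow hold both.

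Each member was detected far above the floor of 3 counts, which stood between 0.0588 and 0.109 CPM. To compare genes with one another, the level was divided by the length of the longest annotated transcript, as CPM per kilobase. Over the 10 supernatant pools (second set for the prior pools), Gria1 had the highest level per length at 21.8 ± 5.57 (SD, n = 10). Gria2 followed at 13.3 ± 3.57, Gria4 at 7.62 ± 1.81 and Gria3 at 5.41 ± 1.08. The kainate genes among the members were lower, Grik1 at 3.63 ± 1.08, Grik2 at 2.19 ± 0.66 and Grik3 at 1.26 ± 0.28. The ranges of all neighbours in this order overlapped between pools, but within a pool the order was the same in 10 of 10 pools for each of the 6 neighbouring pairs. On the scale per coding length the order was another one. Gria2 (52.0 ± 14.0) then came before Gria1 (44.3 ± 11.3) in 9 of 10 pools, and Grik2 (7.59 ± 2.27) came before Grik1 (4.73 ± 1.41) in 10 of 10. Only 3 of the 7 members kept their place, so which AMPA subunit leads cannot be read from these counts. The high-affinity kainate subunit Grik5, not a member here, stood at 13.4 CPM per kilobase of its longest transcript, and Grik4 at 1.83. On that scale Grik5 was close to Gria2 and above Gria4, Gria3 and Grik1 to Grik3, so not all kainate genes were below the AMPA genes.

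**Figure D1:**
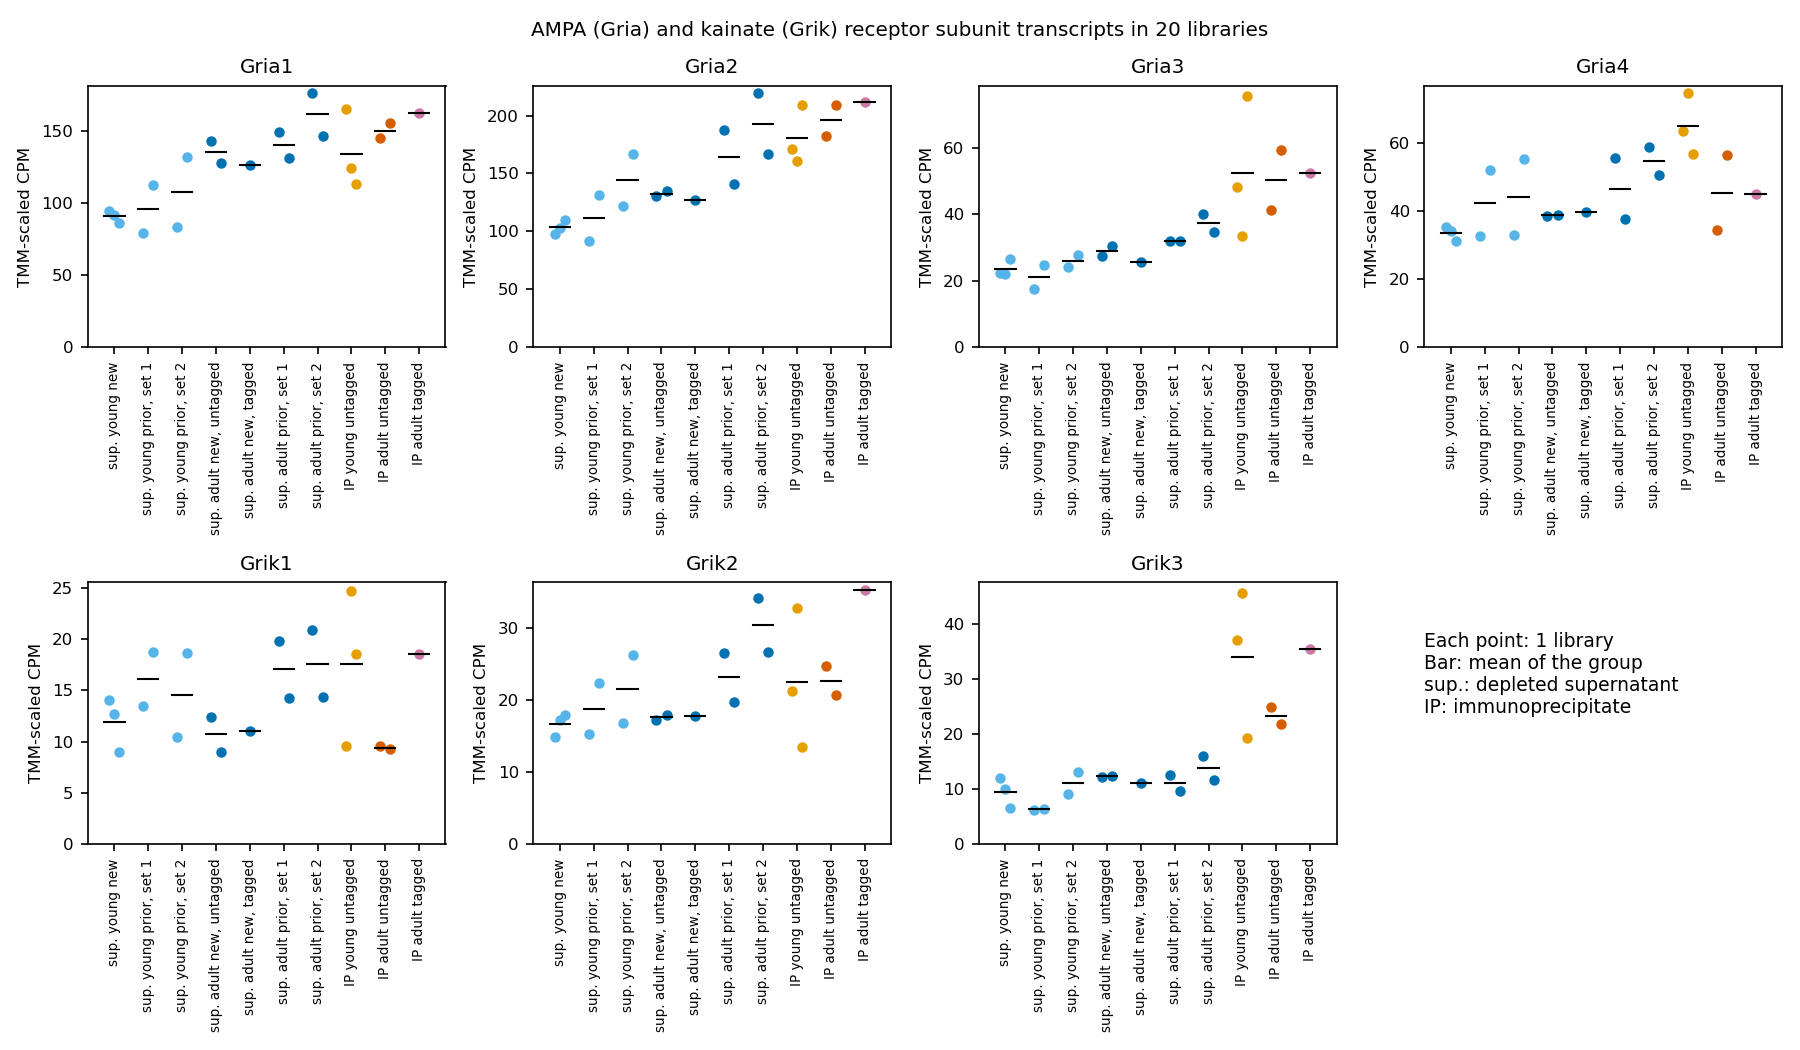
TMM-scaled CPM of the 7 subunit genes in the 20 libraries, 1 point per library, with a bar at the mean of each group (sup., depleted supernatant; IP, immunoprecipitate; untagged, negative control; set, sequencing set of the prior pools). Grik3 reaches 19.3 to 45.5 CPM in the IP libraries and 6.03 to 15.9 CPM in the supernatants, while the IP and supernatant values of Grik1 overlap.

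Shares within a family show how the mix of subunits varied. In the 10 supernatant pools Gria1 made up 45.1% ± 3.08 (SD) of the summed AMPA level per longest transcript, Gria2 27.6% ± 2.08, Gria4 15.9% ± 1.33 and Gria3 11.4% ± 1.17. Among Grik1 to Grik3, Grik1 made up 50.9% ± 3.95, Grik2 31.0% ± 3.96 and Grik3 18.1% ± 2.91. By coding length the leading subunit changed in both families. Gria2 then made up 42.4% and Gria1 36.2%, with Gria4 at 12.6% and Gria3 at 8.74%. Grik2 made up 46.05%, Grik1 28.7% and Grik3 25.3%. The mix in the negative IP libraries was further spread. There the Gria1 share ran from 31.0 to 45.0% and the Gria3 share from 11.1 to 22.2%, the highest in young pool 3. Grik3 made up 24.8 to 45.8% of the summed level of Grik1 to Grik3 in the 5 negative IP libraries. In their supernatants it made up 14.3 to 23.8%, so that the ranges did not overlap. The same shares of Grik3 by coding length were 37.6 to 54.5% and 19.5 to 31.2%, again without overlap. Grik4 and Grik5 were not part of this sum, and Grik5 was higher in the negative IP too (log2 0.96). These shares therefore do not give the part of Grik3 among all kainate subunits.

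**Figure D2:**
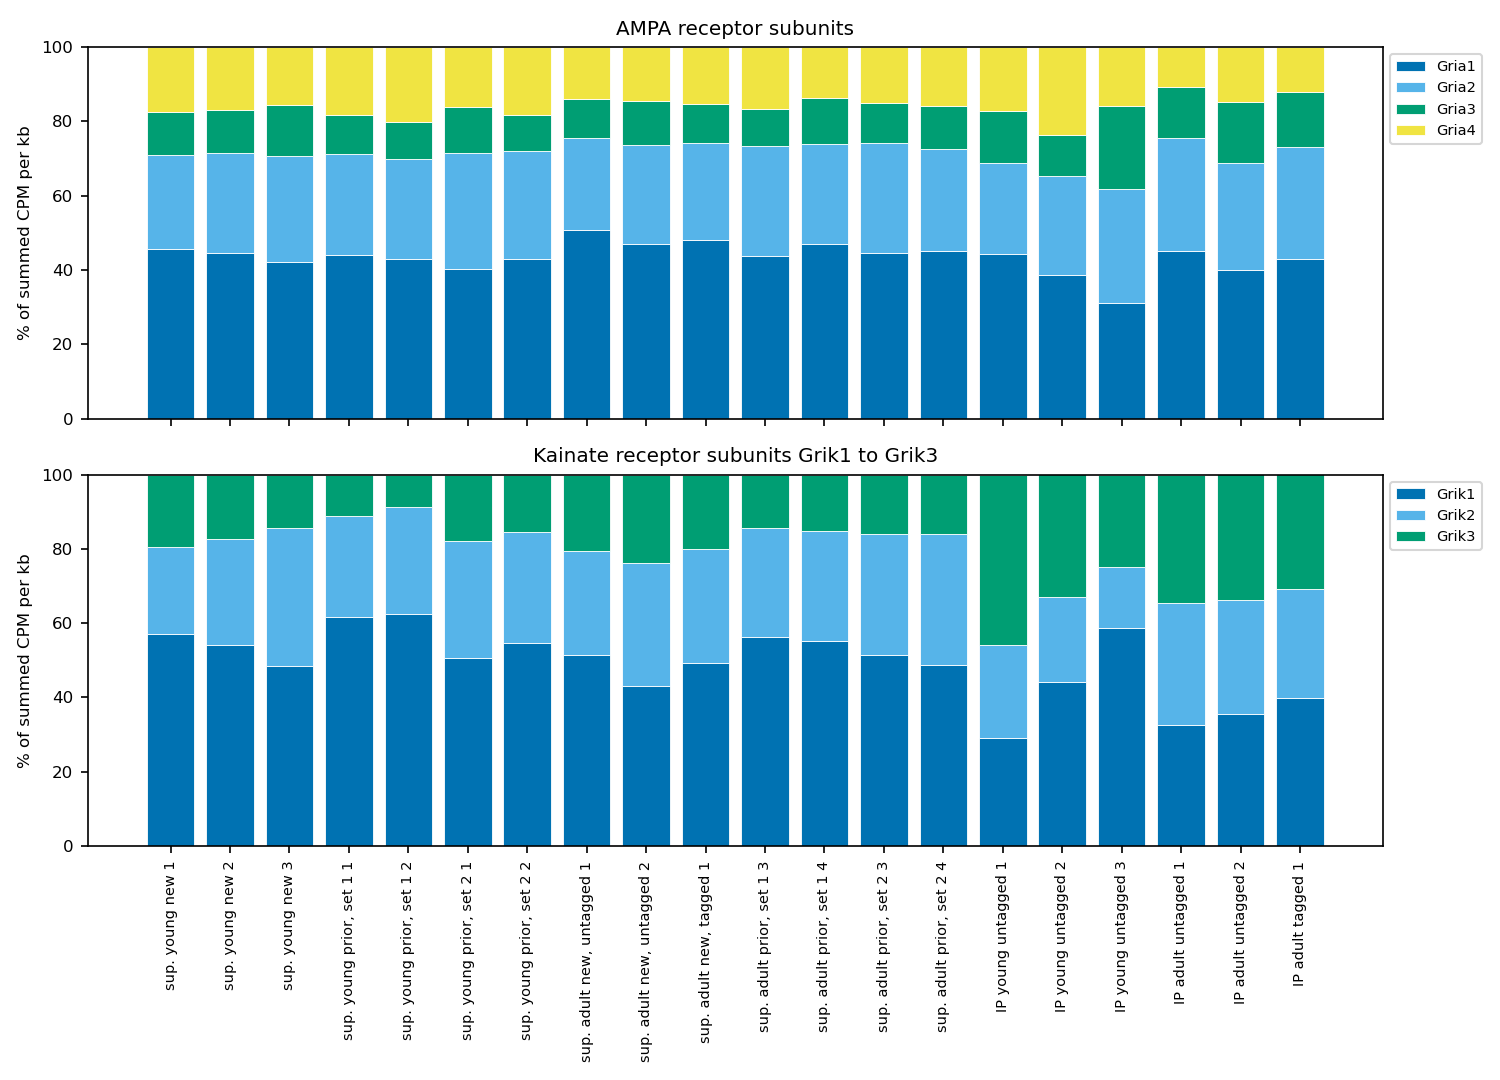
Share of each subunit, in percent, of the summed CPM per kilobase of the longest transcript, for the 4 AMPA subunits (top) and Grik1 to Grik3 (bottom), 1 bar per library. The Grik3 share is 24.8% or more in all 5 untagged IP libraries and 23.8% or less in the second-set supernatants.

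The first comparison asked how these transcripts are recovered in a pull-down in which no ribosome carries the tag. Of the 7 members 4 were higher in the negative IP than in the supernatant over both ages, Gria2, Gria3, Gria4 and Grik3, and none was lower; of all 16361 genes tested, 15.8% were called higher and 16.2% lower by the same test. The median log2 fold change of the 7 members was 0.56, and that of all genes was -0.03. IP and supernatant come from the same pools, so the comparison is one of recovery in the pull-down. The fit compared group means and did not pair each IP with its own supernatant. Its p-values rest only on the scatter of these libraries within their groups.

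Grik3, which encodes GluK3, a kainate subunit of low glutamate affinity, showed the largest ratio of the 7. Its CPM in the negative IP was 37.1, 45.5 and 19.3 in young pools 1 to 3 and 24.8 and 21.7 in adult pools 1 and 2. The supernatants of those pools held 11.9, 9.89, 6.51, 12.2 and 12.3 CPM. Every IP library was above every supernatant library, and the log2 fold change was 1.36 (SE 0.27, adjusted p = 0.00323). Of all genes tested 12.2% had every IP library above every supernatant.

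Gria3, the X-linked gene of GluA3, stood at 48.3, 33.5 and 75.7 CPM in the young IP and at 41.4 and 59.4 CPM in the adult IP. Its supernatants held 22.3, 22.1, 26.5, 27.4 and 30.3 CPM. The groups did not overlap, although the IP values were wide apart, with young pool 3, the floxed pool with high cortical markers, highest (log2 0.94, SE 0.22, adjusted p = 0.00762). Without both libraries of that pool Gria3 stood at log2 0.81 (SE 0.18, adjusted p = 0.011). Without adult supernatant 1 the call ended (adjusted p = 0.0529).

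Gria2, the gene of the subunit that sets calcium permeability, had the narrowest spread relative to its mean in the IP. It stood at 171, 161, 209, 183 and 209 CPM in the 5 IP libraries and at 97.9, 103, 109, 130 and 135 CPM in their supernatants. The groups did not overlap (log2 0.65, SE 0.10, adjusted p = 0.000699). Gria4, whose product GluA4 is known from fast-spiking interneurons, stood at 63.4, 74.4 and 56.7 CPM in the young IP, above the 35.3, 34.0 and 31.0 CPM of the young supernatants. In the adult pools the IP held 34.3 and 56.3 CPM and the supernatants 38.5 and 38.8 CPM, so that the groups overlapped there. Over both ages Gria4 rose by log2 0.56 (SE 0.16, adjusted p = 0.0203), but not without young supernatant 2 (adjusted p = 0.0537), adult supernatant 1 (0.0929), adult supernatant 2 (0.0824) or adult IP 2 (0.0732).

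Gria1, the gene of the AMPA subunit that enters synapses during potentiation, stood at 165, 124 and 113 CPM in the young IP and 145 and 156 CPM in the adult IP. Its supernatants held 94.5, 91.6, 85.9, 143 and 127 CPM, so that young IP libraries overlapped adult supernatants. It missed the threshold (log2 0.33, SE 0.12, adjusted p = 0.0549). With the pool as a replicate block, which pairs each IP with its own supernatant, it passed (log2 0.32, SE 0.10, adjusted p = 0.0459), and the count of members was then 5. Without both libraries of young pool 3 it passed too (log2 0.37, SE 0.11, adjusted p = 0.0363), as did Gria2, Gria3, Gria4 and Grik3. Over the 8 alternative fits of this comparison, these included, 3343 to 5882 of all genes were called in either direction. The share of all genes called higher was not counted for the replicate block alone or without young pool 3. The calls in those fits therefore describe the members only. Grik1, the gene of GluK1, had the widest scatter, with 9.61, 24.8, 18.5, 9.56 and 9.24 CPM in the IP against 14.1, 12.7, 8.95, 12.4 and 9.01 CPM (log2 0.16, SE 0.29, adjusted p = 0.737). Grik2, the gene of GluK2, stood at 21.3, 32.8, 13.5, 24.7 and 20.6 CPM in the IP against 14.8, 17.2, 17.8, 17.2 and 17.9 CPM (log2 0.37, SE 0.24, adjusted p = 0.296). For neither gene were the IP libraries set apart from the supernatants.

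Pool by pool, with the pairs taken from the titles, the IP was above its own supernatant in 5 of 5 negative pools for 4 members. These were Gria1, Gria2, Gria3 and Grik3, with Gria1 only 1.01-fold higher in adult pool 1. The IP was above in 4 of 5 for Gria4 and Grik2 and in 3 of 5 for Grik1. The share of all genes above in 5 of 5 pools was not counted, so these counts describe the members only. For Grik3 the ratio lay between 1.77-fold in adult pool 2 and 4.60-fold in young pool 2. The lowest ratios were 0.68-fold for Grik1 in young pool 1 and 0.76-fold for Grik2 in young pool 3.

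**Figure D3:**
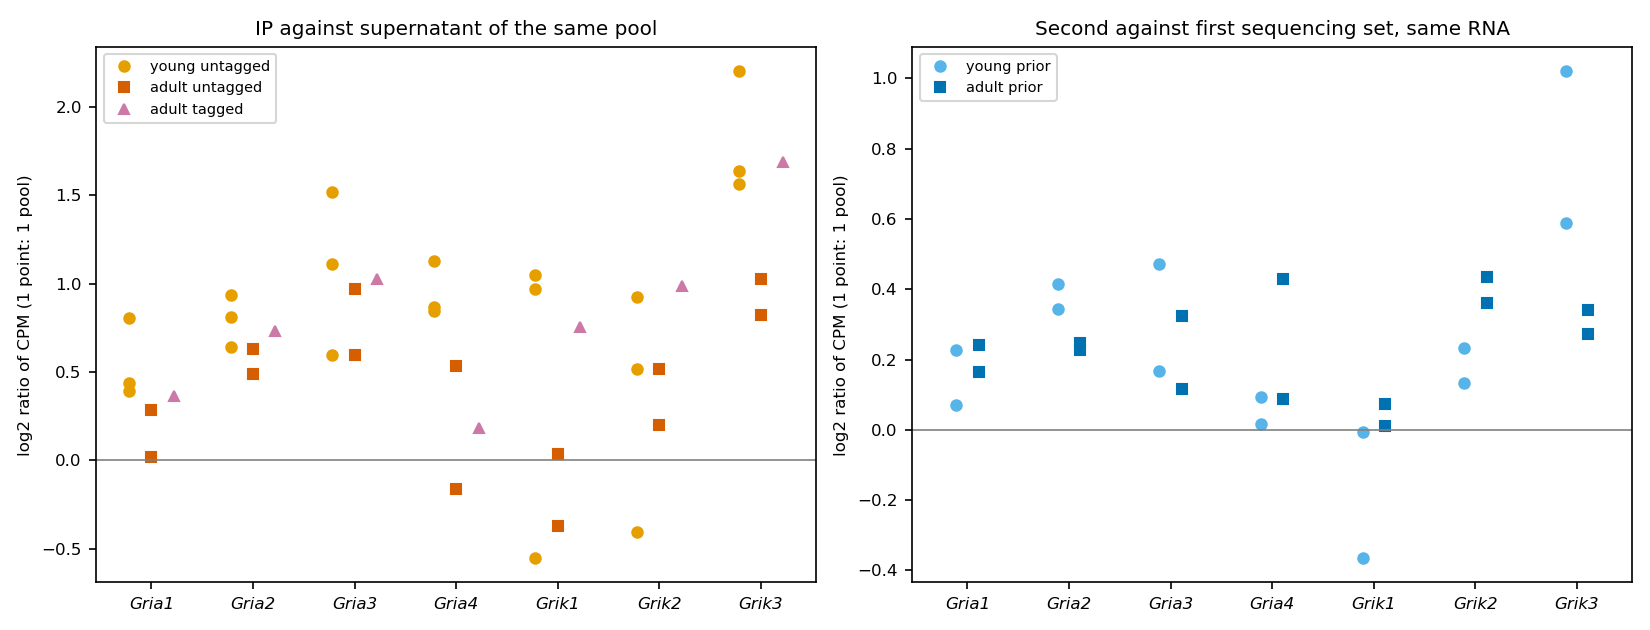
Left, log2 ratio of IP to supernatant CPM within each of the 6 new pools; right, log2 ratio of the second to the first sequencing set for the same RNA of each of the 4 prior pools; 1 point per pool, horizontal line at no difference. Every point of Gria1, Gria2, Gria3 and Grik3 is above the line on both sides, while points of Grik1 lie on both sides of it.

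The longest transcripts of the members measure 3655 nt (Grik1) to 10371 nt (Gria2). With each library's trend of level with transcript length over all genes removed, 1 of the 7 members was higher over both ages, where 16.8% of all genes were, a larger share than among the members. This member was Gria3 (log2 0.79, SE 0.19, adjusted p = 0.0133). Grik3 stood at log2 0.69 (SE 0.28, adjusted p = 0.106), but passed with the replicate block added (0.66, SE 0.20, adjusted p = 0.0494; 15.7% of all genes higher), and Gria4 at 0.37 (SE 0.16, adjusted p = 0.126). Gria2 turned from 0.65 to -0.14 (SE 0.10, adjusted p = 0.343) and Grik2 from 0.37 to -0.34 (SE 0.25, adjusted p = 0.387). The longest annotated transcript need not be the one expressed.

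In the young pools alone 5 members were higher in the IP and none was lower, with 13% of all genes called higher and 14.1% lower. In the adult pools 1 was higher and none lower, with 6.39% of all genes called higher and 4.49% lower. The young calls were Gria1 (log2 0.52, SE 0.15, adjusted p = 0.0246), Gria2 (0.76, SE 0.13, adjusted p = 0.00152), Gria3 (1.10, SE 0.28, adjusted p = 0.0137), Gria4 (0.92, SE 0.20, adjusted p = 0.00694) and Grik3 (1.81, SE 0.35, adjusted p = 0.00329). Those 5 genes also had every young IP library above every young supernatant, as did 20.9% of all genes. The calls of Gria1 and Gria3 ended without young supernatant 1 (adjusted p = 0.0679 and 0.0659) or 2 (0.0848 and 0.0685), and that of Gria1 also without young supernatant 3 (0.0789) or young IP 1 (0.063). With the length trend removed only Gria3 (0.94, adjusted p = 0.0238) and Gria4 (0.72, adjusted p = 0.0343) passed in the young pools, with 12.6% of all genes higher. With the replicate block added Grik3 did too (1.07, SE 0.26, adjusted p = 0.0247), with 11.7% of all genes higher.

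The adult call was Gria2 (log2 0.54, SE 0.15, adjusted p = 0.0482). It ended in 7 of the 10 fits that left out 1 library (adjusted p 0.0653 to 0.317), all but those without 1 of the young IP libraries, and with the size factors of DESeq2 (0.0538), limma voom (0.0506) or no filter on low counts (0.0584). Adult Grik3 had log2 0.91 (SE 0.41, adjusted p = 0.198; 0.0495 without both libraries of young pool 3) and adult Gria3 0.78 (SE 0.34, adjusted p = 0.173). Every adult IP library was above both adult supernatants for 5 members, all but Gria4 and Grik1, as for 27.7% of all genes. In these fits all 7 ratios were smaller in the adult pools, by log2 0.05 (Grik2) to 0.90 (Grik3). The difference between the ages, tested as an interaction, passed for none of the 7 members and for 0% of all genes by edgeR. At an unadjusted p under 0.05 there were 1068 genes, and DESeq2 called 118 and limma voom 0. The member with the smallest p was Gria4 (interaction -0.71, SE 0.32, unadjusted p = 0.0478, adjusted p = 0.765).

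**Figure D4:**
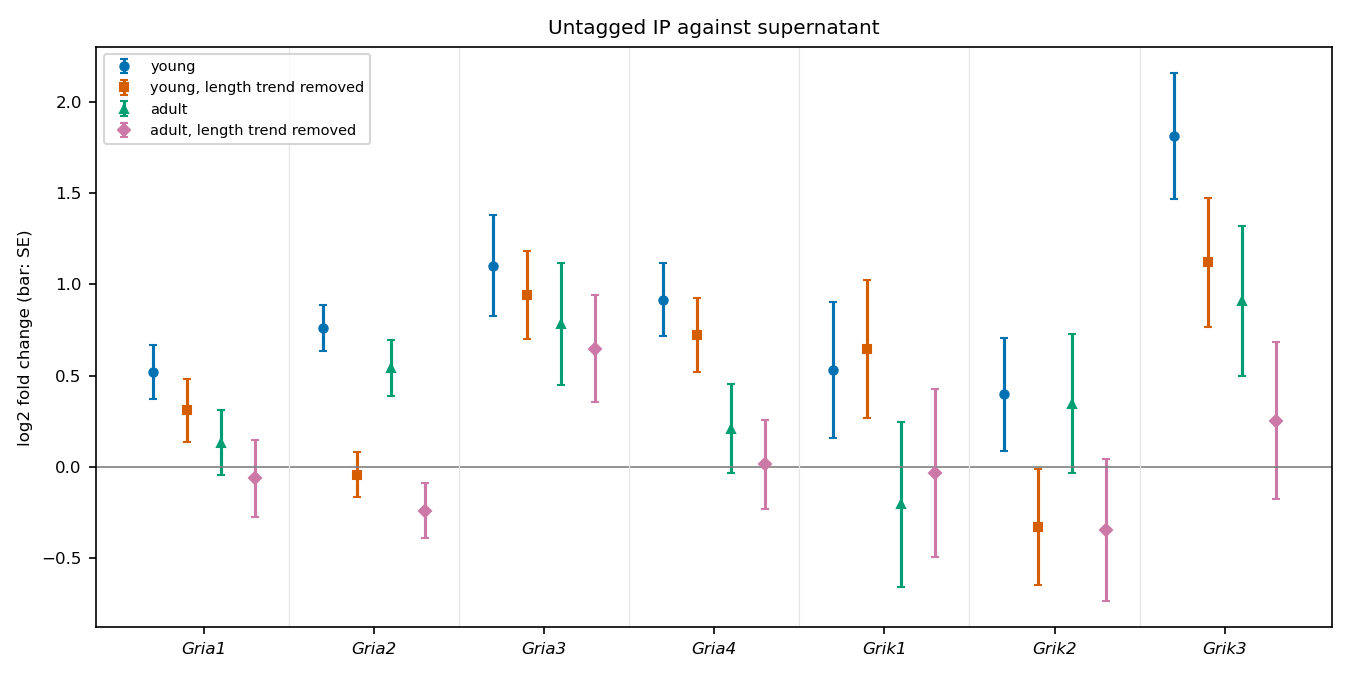
Log2 fold change of untagged IP against supernatant for each member, with bars of 1 SE, in young pools (n = 3) and adult pools (n = 2), before and after removal of each library's trend with transcript length. Grik3 goes from 1.81 to 1.12 in young pools and Gria2 from 0.76 to -0.04, while Gria3 keeps 0.94 of 1.10.

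Genes that work with the receptors were split in the comparison over both ages, in which 15.8% of all genes were called higher and 16.2% lower. Of 14 AMPA auxiliary subunit genes 2 were higher and none lower, Shisa7 (log2 1.57, SE 0.23, adjusted p = 0.000604), which encodes a receptor-associated membrane protein, and Cacng4 (0.76, SE 0.22, adjusted p = 0.0222), a transmembrane AMPA receptor regulatory protein, which is about the share among all genes. Of 14 scaffold and trafficking genes 5 were higher and 2 lower, among them Grip1 (1.00, SE 0.22), which binds GluA2 and GluA3, and Dlg4 (-0.41, SE 0.14), which encodes PSD-95. The kainate partner Grik5 rose (0.96, SE 0.13, adjusted p = 0.00032) and Grik4 did not pass (0.50, SE 0.31, adjusted p = 0.255). Of the kainate auxiliary genes Neto1 and Neto2 none passed. Of 3 RNA editing enzymes Adarb1, which encodes the ADAR2 enzyme that edits the Q/R site of Gria2, was higher (0.40, SE 0.09, adjusted p = 0.00899). Of 8 synaptic organisers Lrrtm1 was higher (0.82, SE 0.15, adjusted p = 0.0018). Beside these values, summed pan-neuronal markers ran from 6341 to 7534 CPM in the negative IP and from 7442 to 8635 CPM in the supernatants, with 1 of 10 markers higher and 3 lower. Summed oligodendrocyte markers overlapped widely (2900 to 7662 against 3323 to 6786 CPM) and none of 8 passed. Of 5 glutamate and GABA neuron markers Gad1 and Gad2 were higher and Slc32a1 lower, with sums of 1294 to 1944 against 1120 to 1311 CPM. Of 6 oligodendrocyte precursor markers Pdgfra and Cspg4 were higher and Neu4 lower (56.5 to 140.2 against 45.2 to 92.5 CPM). Of 8 astrocyte markers 2 were higher and none lower (499 to 1437 against 540.1 to 690.2 CPM). Of 6 microglia markers 2 were lower and none higher (35.0 to 62.2 against 42.6 to 63.8 CPM). Of 6 cortical and striatal markers 1, Drd1a, was higher (223 to 426 against 164 to 319 CPM). The endothelial and the fibroblast and meningeal lists had no call. The part of these markers in the subunit values was not tested.

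The supernatants allowed adult and young preoptic area to be compared over 5 pools of each age, with the origin of the pool (new or prior) as a term. Of the 7 members 3 were higher in adults, Gria1, Gria2 and Gria3, and none was lower; of all 15938 genes tested 4.2% were called higher and 5.22% lower. The new young and adult pools differ in genotype as well as age, and the prior pools share 1 genotype. The median log2 fold change was 0.32 over the members and 0.01 over all genes. In bulk RNA of this kind, fewer cells of a type and less RNA per cell cannot be told apart. The p-values rest only on the scatter of these pools around the fitted age and origin terms.

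Gria1 stood at 94.5, 91.6 and 85.9 CPM in the new young pools and at 126, 143 and 127 CPM in the new adult pools, tagged pool first. The prior pools held 83.5 and 132 CPM when young and 176 and 147 CPM when adult. Adults were above young within each origin, but young prior pool 2 reached into the new adult pools. Gria1 rose by log2 0.56 (SE 0.11, adjusted p = 0.00616), or 1.47-fold, and it stayed past the threshold when any 1 pool was left out (adjusted p 0.00139 to 0.0252).

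Gria2 stood at 97.9, 103 and 109 CPM in the new young and 127, 130 and 135 CPM in the new adult pools. The prior pools were higher, at 122 and 167 CPM when young and 219 and 167 CPM when adult. The rise was log2 0.37 (SE 0.10, adjusted p = 0.0276). Gria3 stood at 22.3, 22.1 and 26.5 CPM in the new young pools, 25.8, 27.4 and 30.3 CPM in the new adult pools, 24.0 and 27.7 CPM in the prior young pools and 40.0 and 34.8 CPM in the prior adult pools. Its rise was log2 0.35 (SE 0.10, adjusted p = 0.0483). Both calls depended on single pools. The call of Gria2 ended in 7 of the 10 fits that left out 1 pool (adjusted p up to 0.0732), all but those without young negative pool 3, young prior pool 2 or adult prior pool 4. That of Gria3 ended in 9 of 10 (adjusted p up to 0.123), all but the fit without young negative pool 3 (0.0187), and also with the size factors of DESeq2 (0.0503) or no filter on low counts (0.0536).

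The other 4 members did not pass. Gria4 stood at 31.0 to 35.3 CPM in the 3 new young pools and 38.5 to 39.6 CPM in the 3 new adult pools, without overlap, but young prior pool 2 held 55.3 CPM, above adult prior pool 4 at 50.6 CPM (log2 0.26, SE 0.12, adjusted p = 0.192). Grik2 ran from 14.8 to 17.8 CPM in the new young and from 17.2 to 17.9 CPM in the new adult pools (log2 0.25, SE 0.14, adjusted p = 0.284). Grik3 stood at 6.51 to 12.9 CPM in young and 10.9 to 15.9 CPM in adult pools (log2 0.32, SE 0.17, adjusted p = 0.256). Grik1 had log2 0.03 (SE 0.19, adjusted p = 0.943), with 8.95 to 18.7 CPM in young and 9.01 to 20.9 CPM in adult pools. No member had every adult pool above every young pool, which 2.61% of all genes did. Within the new pools 3 members did (Gria1, Gria2 and Gria4; 11.9% of all genes), and within the prior pools 4 did (Gria1, Gria2, Gria3 and Grik2; 22.8%).

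Fitted by origin, the new pools alone gave Gria1 at log2 0.56 (SE 0.09, adjusted p = 0.0142), Gria2 at 0.35 (SE 0.09, adjusted p = 0.0628) and Gria3 at 0.25 (SE 0.13, adjusted p = 0.348). The prior pools alone gave 0.58 (SE 0.21, adjusted p = 0.398), 0.41 (SE 0.19, adjusted p = 0.471) and 0.53 (SE 0.16, adjusted p = 0.312). Without both supernatants that the series text names differently from their titles, no member passed, Gria1 standing at log2 0.54 (SE 0.14, adjusted p = 0.0756). With the length trend removed Gria1, Gria2 and Gria3 were still higher, at log2 0.51, 0.33 and 0.31 (adjusted p = 0.00687, 0.0171 and 0.0424), with 3.7% of all genes higher.

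**Figure D5:**
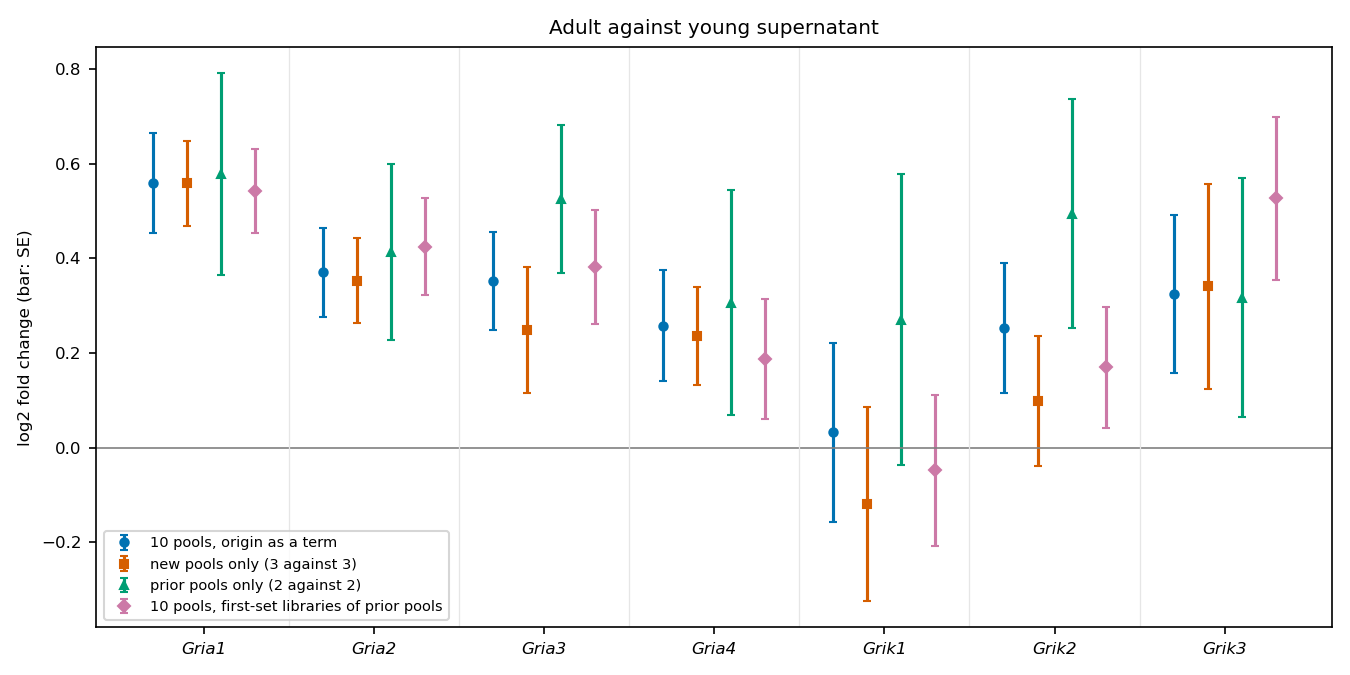
Log2 fold change of adult against young supernatant for each member, with bars of 1 SE, from all 10 pools with origin as a term, from the new pools, from the prior pools and with the first-set libraries of the prior pools. Gria1 lies between 0.54 and 0.58 in the 4 fits, while Grik1 lies on both sides of 0.

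Few other genes of these receptors passed between the ages, where 4.2% of all genes were higher and 5.22% lower. Of 14 AMPA auxiliary genes Cnih2, a cornichon that slows AMPA receptor deactivation, was lower (log2 -0.27, SE 0.07, adjusted p = 0.0246) and none was higher. Of 14 scaffold and trafficking genes 6430704M03Rik, the older symbol of Frrs1l, whose product takes part in AMPA receptor assembly, was higher (0.58, SE 0.09, adjusted p = 0.00191) and none was lower. Grik4 (0.14, SE 0.14), Grik5 (-0.04, SE 0.10) and the 3 editing enzymes did not pass. Markers of other cells moved beside the members. Of 8 oligodendrocyte markers 4 were lower in adults, with Mobp (-1.54, SE 0.16) lowest, and their sum ran from 4388 to 6786 CPM in young pools and from 2427 to 5228 CPM in adult pools. Of 6 oligodendrocyte precursor markers Gpr17 (-1.60, SE 0.13) and Neu4 (-0.70, SE 0.11) were lower, and the sums did not overlap, with 67.9 to 92.5 CPM in young and 40.6 to 55.3 CPM in adult pools. Of 8 astrocyte markers Slc1a3 (0.41, SE 0.10) and of 6 microglia markers C1qa (0.86, SE 0.21) were higher, with none lower. Their sums overlapped, at 437.4 to 664.9 in young against 459.8 to 690.2 CPM in adult pools for astrocytes and 26.1 to 53.8 against 30.9 to 64.0 CPM for microglia. The glutamate and GABA neuron, endothelial, and fibroblast and meningeal lists had no call. Of 10 pan-neuronal markers Syt1 was higher (0.32, SE 0.07) and Tubb3 (-0.44, SE 0.08) and Stmn2 (-0.53, SE 0.07) were lower. Of 6 cortical and striatal markers Drd1a, the older symbol of the dopamine D1 receptor gene, was higher (0.72, SE 0.15), and their sum was 164 to 305.5 CPM in young and 237.2 to 328.5 CPM in adult pools. Their part in the subunit values was not tested.

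The same RNA of the 4 prior pools, sequenced in both sets, showed how far sequencing the same material again moved these genes. Of the 7 members 5 were higher in the second set, Gria1, Gria2, Gria3, Grik2 and Grik3, and none was lower, with 15% of all 16117 genes called higher and 16.1% lower. Grik3 moved most, from 6.03, 6.38, 12.5 and 9.61 CPM in the first set (young pools 1 and 2, adult pools 3 and 4) to 9.06, 12.9, 15.9 and 11.6 CPM in the second (log2 0.54, SE 0.13, adjusted p = 0.006). In young prior pool 2 the Grik3 value was 2.03-fold that of the first set. Gria2 went from 91.7, 131, 187 and 141 CPM to 122, 167, 219 and 167 CPM (log2 0.29, SE 0.05, adjusted p = 0.000228). Gria1 (0.16, SE 0.05, adjusted p = 0.0222), Gria3 (0.26, SE 0.08, adjusted p = 0.0314) and Grik2 (0.28, SE 0.09, adjusted p = 0.0256) differed less. Of the 7 members 6 were higher in the second set in 4 of 4 pools, as were 23.3% of all genes, and Grik1 in 2 of 4 (-0.08, SE 0.11, adjusted p = 0.615). These p-values concern repeated sequencing only, not separate mice. The count was 2 without young prior pool 2 or adult prior pool 3 and 3 without adult prior pool 4. With the length trend removed 2 members, Gria1 (0.14, adjusted p = 0.0209) and Gria3 (0.26, adjusted p = 0.0339), still differed, with 12.5% of all genes higher. Side by side, the set difference was 0.29 and the age difference 0.37 for Gria2, and 0.54 and 0.32 for Grik3, the age differences being taken within the second set.

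The tagged pool asked what ribosomes of GnRH neurons add to the pull-down. No member passed the test between the tagged IP and the adult negative IP, with 0.00603% of all 16586 genes called higher by edgeR, which is 1 gene, Gnrh1. At an unadjusted p under 0.05 there were 821 genes, and DESeq2 called 210 and limma voom 1. There was 1 tagged IP library, against 2 adult negative ones, and the test assumed that it varied like the negative IP libraries, so that a missed threshold does not show that the members were alike. In the tagged IP the AMPA genes Gria1, Gria2, Gria3 and Gria4 stood at 162, 212, 52.4 and 44.9 CPM. The adult negative IP libraries held 145 and 156, 183 and 209, 41.4 and 59.4, and 34.3 and 56.3 CPM of them, with log2 differences of 0.03 to 0.15. The kainate genes were at 18.6 CPM (Grik1), 35.3 CPM (Grik2) and 35.3 CPM (Grik3), against adult negative IP libraries with 9.56 and 9.24, 24.7 and 20.6, and 24.8 and 21.7 CPM. The log2 differences were 1.02 (SE 0.67, adjusted p = 0.938), 0.68 (SE 0.57, adjusted p = 0.948) and 0.64 (SE 0.53, adjusted p = 0.945). The tagged library was above both adult negative IP libraries for 5 members, all but Gria3 and Gria4, as for 32.1% of all genes. Young negative IP libraries without the tag reached 24.8 CPM of Grik1 and 45.5 CPM of Grik3, above the tagged library. Markers of cell types differed too between the tagged and the adult negative IP. Median log2 differences were 0.43 for pan-neuronal, 0.48 for cortical and striatal, 0.17 for glutamate and GABA neuron and 0.38 for microglia markers. They were -0.30 for astrocyte, -0.47 for oligodendrocyte precursor, -0.86 for oligodendrocyte, -1.37 for endothelial and -1.35 for fibroblast and meningeal markers. Their part in the subunit values was not tested. Against its own supernatant the tagged IP was 3.22-fold higher for Grik3 and 1.69-fold for Grik1, with no replicate. It was 2.04-fold higher for Gria3 and 1.98-fold for Grik2. The same ratio in the untagged pools ran from 1.77 to 4.60-fold for Grik3 and from 0.68 to 2.07-fold for Grik1. It ran from 1.51 to 2.86-fold for Gria3 and from 0.76 to 1.90-fold for Grik2. Of the members only Grik2 was above its untagged range in the tagged pool.

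Across the 10 supernatant pools the log2 levels of the members ran together to different degrees, which is given as a description of pools that share depth, origin and age differences. The closest pair was Gria2 and Grik2 (Pearson's r 0.943, 10 pools) and the least close Gria3 and Grik1 (0.418). Of 9487 named genes with a mean log2 CPM of at least 3, the one most like Gria1 was Ece2 (0.985), an endothelin-converting enzyme gene. The nearest to Gria2 was Rnf24 (0.972), to Gria3 the potassium channel gene Kcnma1 (0.976), to Gria4 Reep2 (0.986), to Grik1 Gpr85 (0.945), to Grik2 the metabotropic glutamate receptor gene Grm7 (0.971) and to Grik3 Pcdh19 (0.968). The somatostatin gene Sst was among the 3 nearest to Grik3 (0.956). No p-value is attached to these correlations, because each is the highest of many.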

How the data were processed

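The deposited table held raw read counts per gene symbol, made by the authors. The submitters' processing notes name HTSeq 0.6.1, Bowtie2 2.2.1, TopHat2 2.0.13, DESeq2 1.14.1, Cuffdiff 2.1.1, FastQC 0.11.3 and the build mm10. The role each tool had here, the annotation and the strand setting are not given in the sources used here. No annotated gene overlaps a member on the opposite strand. On the same strand 5 members hold other annotated genes, which share exon bases with 3 members (Gria2, Gria3 and Gria4), and none of these genes has a row in the count table. Libraries were made from polyA RNA with a low-input SMARTer kit, per the labels. Total counts per library were 27.7 to 50.5 M, and floors cover counting error only.

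Groups and replicate numbers follow the sample titles. The series text once names another adult supernatant as the tagged one, and the descriptions number the adult negative supernatants otherwise. Counts were scaled by TMM and tested over all genes in edgeR 4.0.16 (R 4.3.3) by its quasi-likelihood method, after filterByExpr with a minimum count of 10 and with Benjamini-Hochberg adjustment at 0.05. The 10 negative libraries (group means, no pool term) and the 10 second-set supernatants (age and origin) were fitted separately. So were the 8 prior libraries (set and pool) and the 6 IP libraries (group means). CPM values are scaled over all 20 libraries. Alternatives used DESeq2 1.42.0, limma 3.58.1 (voom), no filter, length offsets (loess, span 0.3), a replicate block and libraries left out. IP and supernatant were paired by the numbers in their titles. In the young pools, deviations from the group means correlated at 0.113 to 0.284 for the same number, across 16361 genes. For other numbers they correlated at -0.217 to 0.0537. With 2 adult negative pools the deviations within a group mirror each other by design. The adult correlation of 0.102 therefore cannot settle which adult IP and supernatant belong together. Lengths came from GENCODE M21 (GRCm38) for 18954 genes, all members included. The script was tested on simulated data. The members, the gene lists and the rule for genes of like pattern (the 3 highest correlations per member) were chosen with earlier results of these data known. Pools were taken to hold separate mice. The list of preoptic and GnRH neuron markers is not reported here.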

Additional observations from a re-analysis of the deposited data

Results flagged for a closer look

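In each of 6 groups of 4 or 5 libraries, a value of a member far from the others was looked for, 42 cases in all. Chance would give about 1 in 20, but some groups share libraries, so the cases were not independent. In all, 5 values were found. Of these, 3 came from 1 library, young prior pool 2 in the second set, which stood above the 4 other young supernatant pools for Gria1 (132 CPM), Gria4 (55.3 CPM) and Grik2 (26.2 CPM). In the first set the same pool held 113, 51.8 and 22.3 CPM, above young prior pool 1 for each of the 3 genes. Without that library the age difference of Gria1 was log2 0.67 (SE 0.09, adjusted p = 0.00139).

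Grik3 stood at 15.9 CPM in adult prior pool 3 of the second set, above the other adult supernatant pools. Grik2 stood at 14.8 CPM in young negative supernatant 1, below the other negative supernatants.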

How the results depend on the processing

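Over 812 values of single members under the alternatives, 688 kept direction and side of the threshold, 80 lost a call, 6 gained one and 38 changed sign; the cause of the changes was not tested. Counts of members higher that moved by over 1.5 times were, for the adult IP (1 as reported), 0 with DESeq2's size factors, 0 with limma voom, 0 with no filter, 0 with length offsets, 0 with the replicate block and length offsets together, and 2 without the floxed young pool. Length offsets gave 1 for both ages (2 with the replicate block), 2 for young pools (3 with the block) and 2 for the sets. For age the count was 1 with no origin term, 1 in new pools, 0 in prior pools and 0 without both supernatants that are named differently. The sets gave 0 with no replicate block, and 3 members kept their place by coding length. The number of calls among all genes, in either direction, moved between the alternatives too. It ran from 11 to 2262 for age, 797 to 2897 for the adult IP and 3343 to 5882 for both ages. For young pools it was 2508 to 5262 and for the sets 2262 to 5120. The counts of members can therefore not be read by themselves.

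Leaving out 1 library gave counts of 2 to 5 for both ages, 3 to 5 for young, 0 to 1 for adult, 0 to 0 for age by fraction, 1 to 3 for age, 2 to 4 for the sets and 0 to 0 for the tagged IP. Where this left 1 library in a group, it was assumed to vary like the others in the fit. The number of calls among all genes moved with the library left out as well, for age from 723 to 1706. The counts of members can therefore not be read by themselves. The replicate block without other changes moved 1 call, that of Gria1 over both ages (0.32, adjusted p = 0.0459).

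Log2 values changed sign with length offsets for Gria2 (both ages -0.14, young -0.044, adult -0.24, sets -0.062), Grik2 (both ages -0.34, young -0.33, adult -0.35, sets -0.028), adult Gria1 (-0.063), the adult median (-0.034) and Grik1 by age (-0.012). With the replicate block added to the offsets Gria2 was -0.15, -0.050 and -0.24, Grik2 -0.39, -0.42 and -0.37, adult Gria1 -0.062, adult Gria4 -0.0071 and the adult median -0.027. For age by fraction Grik2 was 0.093 with voom, 0.031 with the block and 0.053 with block and offsets. For age Grik1 was -0.048 with first-set libraries, -0.12 in new pools and -0.0035 without both supernatants named differently. Sign changes when 1 library was left out gave ranges of -0.0090 to 0.31 for Grik1 over both ages, -0.18 to 0.51 for adult Gria4, -0.59 to 0.030 for Gria3 and -0.32 to 0.34 for Grik2 by age and fraction. The ranges were -0.12 to 0.13 for Grik1 by age, -0.13 to 0.017 for Grik1 between sets, and -0.16 to 0.39 for Gria3 and -0.31 to 0.43 for Gria4 in the tagged IP.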
